A study of Mus musculus with 2 samples.

Results

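The tumour suppressor gene Trp53, which encodes p53, and 9 genes that p53 is known to activate were described for the binding of CHD2, a chromodomain helicase that remodels nucleosomes. The genes were chosen by name from the p53 pathway and are Trp53, Mdm2, Zmat3, Cdkn1a, Ccng1, Bax, Bbc3, Trp53inp1, Sesn1 and Sesn2, 10 of 21887 protein-coding genes on mm10. The choice was made with peaks of these data known, the strong peak inside Zmat3 among them, so that counts of peaks at these genes are a description and carry no test. CHD2 was precipitated from ES-E14, an embryonic stem cell line of male 129/Ola mouse origin, and the DNA was sequenced (ChIP-seq). There was 1 group of 2 replicates with no genotype, treatment or time course, and the labels number both as biological replicates under the same biosample record. All values therefore come from 1 line under its own culture conditions, and no p53 binding, RNA level or damaged cells were measured.

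As background, p53 is kept low in unstressed cells because Mdm2, a ubiquitin ligase, marks it for destruction and is itself switched on by p53. DNA damage stabilises p53, which binds pairs of short half-sites in its target genes and raises genes for cell-cycle arrest, DNA repair, apoptosis and the sensing of metabolic stress. Mouse embryonic stem cells express p53 without added damage, and the protein takes part in their differentiation and in their death after damage.

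Each peak carries a signal, the peak caller's own value in the authors' lists, which has no stated scale. Rank 1 is the strongest peak of a list. Signals were mainly compared within a list. Where those of the replicates are set against each other, the ranks are the better guide. The optimal list held 8282 peaks that the authors derived from both replicates, and the conservative list 7530. The relaxed lists of each replicate and of both pooled held 300000 peaks each, most of them weak, and of these the 20000 strongest were used. The signal at rank 20000 was 8.09 in replicate 1, 7.87 in replicate 2 and 13.4 in the pooled list. Read depth is unknown, and no precision from it can be given.

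CHD2 peaks were recorded in the gene or within 20 kb of it for 7 of the 10 genes in the optimal list, namely Trp53, Mdm2, Zmat3, Cdkn1a, Ccng1, Bax and Sesn1. The strongest peak lay inside Zmat3, and the next strongest lay at an inner start of Wrap53, beside Trp53. At their own start sites only Trp53 and Ccng1 had an optimal peak. Bbc3, Trp53inp1 and Sesn2 had none in their windows. Of the 14 recorded peaks, 7 lay nearer to the start of a neighbouring gene than to that of the p53 gene whose window held them.

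The share of all protein-coding genes with an optimal peak in the same window was 36.7%. The conservative list gave the same 7 genes, where the share of all genes was 35.0%. All 10 genes had a peak among the 20000 strongest of the pooled list, against 57.1% of all genes, and all 10 did so in replicate 1, against 56.0%. In replicate 2 the count was 9, with Trp53inp1 missing, against 57.3%. Since the genes were named with these lists in view, nothing is read from the differences. The windows held 14 optimal peaks, or 1.40 per gene, against a mean of 0.615 over all genes. The strongest peak per window had a median signal of 32.4 over the 7 genes and of 42.2 over all genes with a peak. The median gene length was 14590 bp for the 10 genes and 17169 bp for all.

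**Figure D1:**
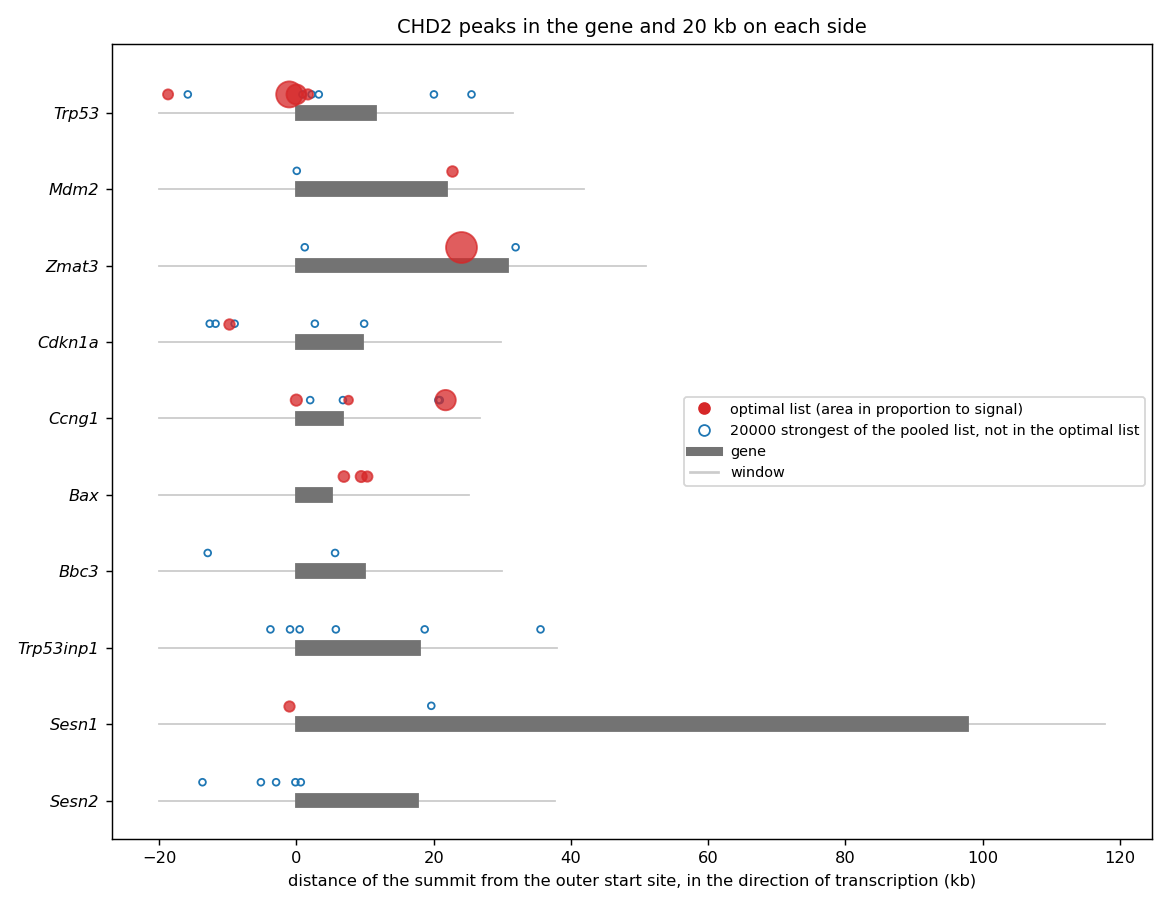
Position of CHD2 peaks along each of the 10 genes, in kb from the outer start site in the direction of transcription, with the gene as a dark bar and its window of 20 kb on each side as a line. Filled red circles are peaks of the optimal list with an area in proportion to signal (244.88 at Zmat3 is the highest), and open blue circles are other peaks among the 20000 strongest of the pooled list. Bbc3, Trp53inp1 and Sesn2 have open circles alone.

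Summits within 1 kb of the outer start were fewer. In the optimal list 2 of the 10 genes had one, Trp53 and Ccng1, against 14.1% of the 21458 genes with a known strand. In the conservative list Mdm2 joined them, giving 3 genes against 13.6%. Among the 20000 strongest peaks the count was 5 in the pooled list against 24.3%, 5 in replicate 1 against 21.3% and 7 in replicate 2 against 23.6%. Trp53, Mdm2 and Ccng1 had such a peak at the same site in both replicates. Sesn2 had one in each replicate, but at different sites. Trp53inp1 had one in replicate 1 alone, and Zmat3, Bax and Sesn1 in replicate 2 alone. A peak overlapped the gene itself for 3 genes, Trp53, Zmat3 and Ccng1, against 19.4% of all genes. For 5 genes, Trp53, Mdm2, Zmat3, Cdkn1a and Ccng1, at least 1 peak had the gene as its nearest protein-coding start, against 22.0%.

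**Figure D2:**
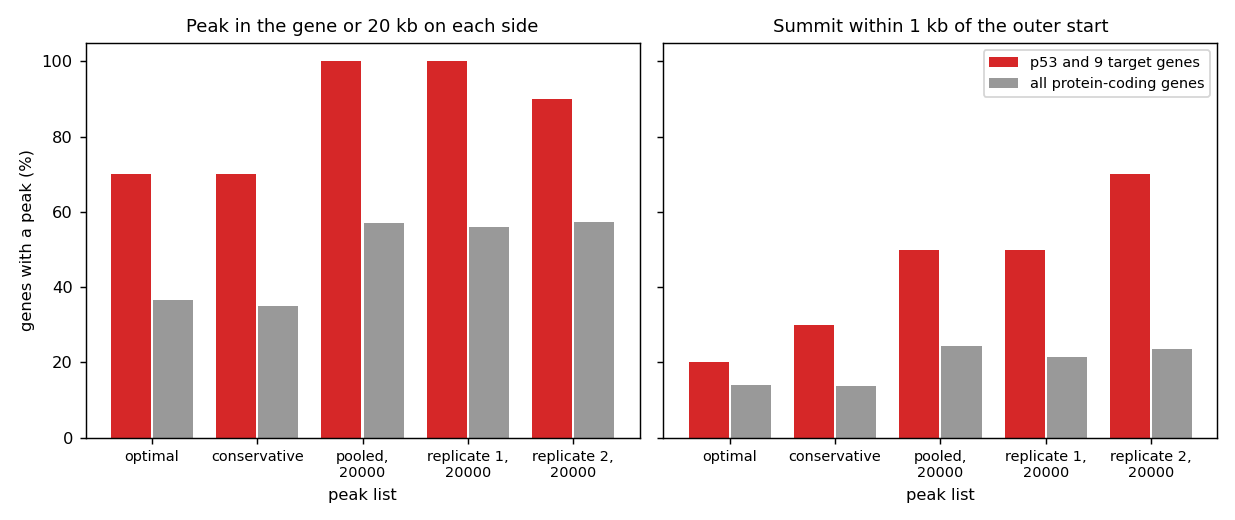
Percentage of genes with a peak in the gene or 20 kb on each side (left) and with a summit within 1 kb of the outer start (right), for p53 and 9 target genes (red, n = 10) and all protein-coding genes (grey), in each of 5 peak lists. The red bars stand above the grey ones in all 5 lists of both panels, by the least at start sites in the optimal list, where 2 of 10 genes stand against 14.1%.

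Trp53 had the most peaks of the 10 genes. Its window held 4 optimal peaks, with Ccng1 and Bax next at 3 each, and 9 peaks among the 20000 strongest of each replicate. The gene, on the plus strand of chromosome 11, starts 98 bp from Wrap53 on the opposite strand, which encodes a protein that guides telomerase to Cajal bodies and in humans also gives a transcript antisense to p53. A peak lay on the start of Trp53 itself, at chr11:69580306-69580402 on mm10, with the summit 2 bp before the outer start. Its signal was 54.2 in replicate 1 and 47.9 in replicate 2, and 102 in the optimal list. These placed it at rank 746, 875 and 771, so both replicates put it among their 1000 strongest peaks. The summit also lay 96 bp before the outer start of Wrap53, and this interval between both genes cannot be assigned to one of them.

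A stronger peak lay about 1 kb away inside Wrap53, at chr11:69579175-69579400. Its signal was 113 in replicate 1 and 63.7 in replicate 2, and 174 in the optimal list, at rank 234, 546 and 345. The summit was 45 bp before an inner start of Wrap53 that the annotation lists, and 1054 bp before the start of Trp53. The next peak had its summit 1671 bp inside Trp53 with a signal of 27.8 in the optimal list. On mm9 the corresponding summit fell in intron 1 of Trp53. Replicate 1 placed this peak at rank 2822 and replicate 2 at rank 10395, so it was weaker in replicate 2. The fourth lay 18712 bp upstream, 486 bp before the start of Efnb3, an ephrin ligand, with a signal of 26.3. It ranked 3227 in replicate 2 but 49993 in replicate 1, and the conservative list did not hold it. The conservative list had 2 further intervals in the window, a peak of signal 21.0 over Atp1b2, a sodium pump subunit, and a weak interval of signal 5.90 that overlapped the start-site peak.

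The sequence under the 3 strongest peaks of the Zmat3 and Trp53 windows shared a short core, TCTCGCG, which was noticed after the sequences were seen. The 3 stretches below are shown because they let this core be compared. Each has 20 bases on either side, reads 5′ to 3′ on the plus strand of the chromosome, and has the core in capitals. The Zmat3 stretch is chr3:32240555-32240601 on mm9, and the other stretches are chr11:69580312-69580358 at Trp53 and chr11:69579252-69579298 at Wrap53, from RefSeq on GRCm38.p6.
Zmat3: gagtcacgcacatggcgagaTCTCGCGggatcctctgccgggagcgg
Trp53: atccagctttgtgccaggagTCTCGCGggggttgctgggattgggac
Wrap53: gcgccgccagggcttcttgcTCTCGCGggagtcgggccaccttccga

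The core lay 14 bases from the mm9 summit at Zmat3, 11 at Trp53 and 29 at Wrap53. Over the mm9 list it was present, on either strand of 300 bases at the summit, in 14.2% of 4612 peaks, and in 59.9% of the 461 strongest and 26.7% of the 461 after them. In windows of the same length 500 bp to either side it was found in 0.824% and 1.04%. Where a peak held it, the median distance from the summit was 14 bases, the value at Zmat3. It occurred in 25.8% of the mm9 peaks within 1 kb of a start and in 3.25% of those over 10 kb from any. Among RefSeq promoters, 3.48% held it. Of the 9 peaks that the mm9 list had in these windows, 3 held it, and they were the 3 just shown. A match of letters does not say which protein bound there.

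**Figure D3:**
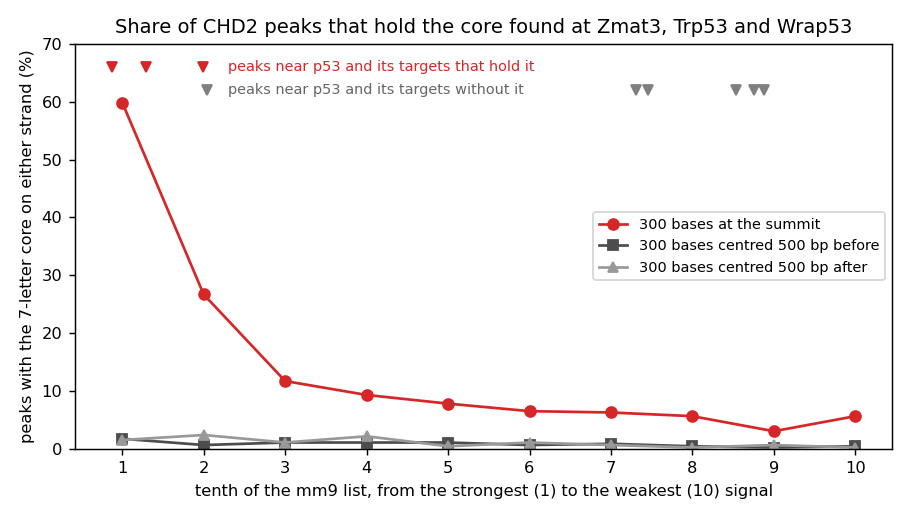
Percentage of mm9 peaks with the core TCTCGCG on either strand in 300 bases at the summit (red) and in windows centred 500 bp before or after it (dark and light grey), over 10 classes of the list from the strongest to the weakest signal. The share is 59.9% in the strongest class and 5.64% in the weakest; triangles mark where the peaks of the p53 genes rank, red with the core and grey without.

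The promoter of Trp53 is shown whole because the peak, the core and a p53 half-site lie in it together. It runs from 250 bases before to 50 after the listed start, as chr11:69580109-69580408 on the plus strand (RefSeq, GRCm38.p6), with the core in capitals.
Trp53 promoter: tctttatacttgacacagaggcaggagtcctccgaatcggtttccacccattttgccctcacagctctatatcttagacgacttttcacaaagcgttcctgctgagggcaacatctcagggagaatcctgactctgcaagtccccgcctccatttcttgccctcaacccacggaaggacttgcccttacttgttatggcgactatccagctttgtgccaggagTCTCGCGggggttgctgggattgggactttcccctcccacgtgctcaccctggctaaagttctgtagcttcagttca

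Mdm2 and Ccng1, which act back on p53, had weaker peaks of their own. Mdm2 had 1 optimal peak, at chr10:117687911-117688270, 784 bp past the end of the gene and 739 bp from the end of Cpm, which encodes carboxypeptidase M. Its signal was 10.5 in replicate 1 and 18.6 in replicate 2, and 29.2 in the optimal list, at rank 9598, 3410 and 4231. At the start of Mdm2 a summit 47 bp inside the gene stood in the conservative but not in the optimal list, with a signal of 22.8. It ranked 5564 in replicate 1 and 14559 in replicate 2. The start site of Mdm2 thus had a peak in both replicates, ranked higher in replicate 1.

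Ccng1 encodes cyclin G1, a partner of protein phosphatase 2A that promotes the removal of p53. Its window held 3 optimal peaks, as did that of Bax. With that of Trp53 these were 3 genes with 3 or more peaks, against 5.91% of all genes. The limit of 3 was not set beforehand and equals the counts of Ccng1 and Bax, so nothing is read from this. The strongest peak in the Ccng1 window, of signal 106, did not lie at Ccng1 but 14981 bp past its end, at chr11:40733513-40733645. There it sat between Nudcd2, which encodes a helper of dynein regulators, and Hmmr, a hyaluronan receptor that also binds the spindle, whose starts face apart over 181 bp. Its summit was 74 bp before the outer start of Nudcd2. The signals were 52.4 in replicate 1 and 54.0 in replicate 2 at rank 787 and 718, the closest match between the replicates among the 4 strongest peaks. The peak at Ccng1 itself, chr11:40755145-40755504, had its summit 16 bp before the start. Its signal was 14.1 in replicate 1 and 21.4 in replicate 2, and 33.3 in the optimal list, at rank 5252, 2696 and 3497. Another peak, 840 bp past the end of the gene, had a signal of 19.9, the lowest of the 14.

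Neither of these start-site peaks held the TCTCGCG core. Both held the CCAAT box, the letters that the factor NF-Y recognises, several times, and they are shown for the number of boxes. In 300 bases at the mm9 summits the Nudcd2 peak had 5 boxes, the Ccng1 peak 3, the start-site peak of Trp53 2, and the Zmat3 and Wrap53 peaks 0. The Nudcd2 promoter is chr11:40733411-40733710 on the plus strand and had 5 boxes. The Ccng1 promoter is chr11:40755237-40755536 on the minus strand and had 4. Both are from RefSeq on GRCm38.p6, read in the direction of the gene, with CCAAT or its reverse complement in capitals.
Nudcd2 promoter: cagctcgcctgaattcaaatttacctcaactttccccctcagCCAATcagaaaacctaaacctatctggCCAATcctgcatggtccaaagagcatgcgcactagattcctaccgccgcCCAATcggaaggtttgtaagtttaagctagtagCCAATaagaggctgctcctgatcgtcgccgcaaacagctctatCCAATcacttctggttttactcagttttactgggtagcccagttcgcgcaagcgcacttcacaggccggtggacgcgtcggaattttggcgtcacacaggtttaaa
Ccng1 promoter: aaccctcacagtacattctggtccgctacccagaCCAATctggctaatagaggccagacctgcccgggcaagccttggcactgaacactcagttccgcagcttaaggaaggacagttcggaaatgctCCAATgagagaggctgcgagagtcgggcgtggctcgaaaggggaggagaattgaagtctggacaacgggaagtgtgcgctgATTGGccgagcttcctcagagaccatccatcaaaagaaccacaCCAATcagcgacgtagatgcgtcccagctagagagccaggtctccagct

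At least 1 CCAAT box stood in 38.2% of 21263 promoters and in 53.6% of the mm9 peaks, so a single box sets neither site apart. Of the 9 mm9 peaks of these genes 6 held at least 1.

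Zmat3 encodes a zinc finger protein that binds RNA and takes part in splicing and RNA stability downstream of p53. Its 1 optimal peak, chr3:32341503-32341790, was the strongest of all 14. The signal was 147 in replicate 1 and 97.1 in replicate 2, and 245 in the optimal list. The ranks were 120, 255 and 167, and the summits of the replicates lay within 3 bp of the optimal summit. Both replicates therefore placed it among their 300 strongest peaks. The window held no other protein-coding gene, and the summit lay 24019 bp from the start, inside a gene of 30874 bp.

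Of the 10 genes, Zmat3 alone had an optimal summit inside the gene and over 10 kb from every protein-coding start. This is 1 of 10 genes, against 5.36% of all genes, whose median signal was 30.2. Of the 1137 such genes with a value in all 3 lists, Zmat3 came second by optimal signal. The closest to it in the signals of the optimal list and both replicates were Ssc5d (234 in the optimal list), Atrnl1 (212), Ift74 (218), Pstpip2 (227) and Acad11 (203), the last through a peak that also lies in Ackr4. Their distances to the nearest start ran from 11142 bp at Ift74 to 57269 bp at Atrnl1. At the start of Zmat3 itself no peak was strong. The best within 1 kb ranked 68161 in replicate 1 and 11145 in replicate 2.

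On mm9, where exons could be read, the Zmat3 summit lay in the last exon, number 6 of 6, in a coding block of 209 bases from 32240409 to 32240617 on chromosome 3, 53 bp from the end nearer the start of the gene. The mm9 peak ranked 175 of 4613 with a signal of 365. Of 1721 mm9 summits over 10 kb from any start, 10 lay in coding sequence, and Zmat3 was the strongest of them. The core was present in 4 of these 10, against 3.25% of the 1721. Zmat3 is among the 4, and the core was noticed in its sequence, so nothing is read from this. The 300 bases around this summit are shown because they carry the strongest peak of the group. They are chr3:32240415-32240714 on the plus strand of mm9, the strand opposite to the gene, with the core in capitals.
Zmat3 peak: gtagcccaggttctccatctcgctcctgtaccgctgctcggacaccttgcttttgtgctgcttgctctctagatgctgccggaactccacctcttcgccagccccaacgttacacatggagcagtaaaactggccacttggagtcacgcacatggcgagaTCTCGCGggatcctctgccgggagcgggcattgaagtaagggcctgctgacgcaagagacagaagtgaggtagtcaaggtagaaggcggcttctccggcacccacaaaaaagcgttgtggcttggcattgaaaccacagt

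Cdkn1a encodes p21, the inhibitor of cyclin-dependent kinases through which p53 arrests the cell cycle. It had 1 optimal peak, chr17:29080904-29081263, which lay 9895 bp upstream of the gene. This peak was 1958 bp from the nearer boundary of Trp53cor1, a long non-coding RNA also known as lincRNA-p21. The strand of Trp53cor1 was not read, so this boundary is not named as its start or its end. The signal was 12.6 in replicate 1 and 17.0 in replicate 2, and 28.6 in the optimal list, at rank 6388, 3967 and 4345. At the outer start itself replicate 1 had no peak within 1 kb, even in its whole relaxed list, and the best in replicate 2 ranked 142430. At the second start that RefSeq lists for Cdkn1a, inside the gene, replicate 2 had a summit 192 bp away at rank 5480 with a signal of 14.2. The pooled list had one 106 bp away at rank 12050, and replicate 1 had none within 1 kb of it among its 20000 strongest. The promoter at the outer start of Cdkn1a is chr17:29090729-29091028 on the plus strand (RefSeq, GRCm38.p6). It is shown with its p53 half-sites in capitals because it held 2 of them and no peak among the 20000 strongest of either replicate.
Cdkn1a promoter: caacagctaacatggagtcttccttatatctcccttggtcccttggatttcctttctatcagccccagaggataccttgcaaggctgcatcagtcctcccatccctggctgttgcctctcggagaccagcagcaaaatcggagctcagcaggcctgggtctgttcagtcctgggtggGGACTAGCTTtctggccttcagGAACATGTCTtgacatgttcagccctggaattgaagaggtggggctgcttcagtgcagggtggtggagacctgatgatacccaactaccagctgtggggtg

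The p53 half-site was searched as its consensus of 10 letters, on both strands and with no mismatch. It was found in a RefSeq promoter of 6 of the 8 genes that the table holds, namely Trp53, Mdm2, Cdkn1a, Ccng1, Bax and Sesn1, against 8.54% of the 17492 genes with a promoter there. The genes were picked as p53 targets, so this count describes the choice. Zmat3 and Trp53inp1 are not in the table. At the mm9 summits the half-site was found in 2 of the 9 peaks, the start-site peak of Trp53 and a peak in the Bax window, and in 8.65% of all mm9 peaks. The strong sites at Zmat3 and Wrap53 had none in 300 bases. The promoter at the outer start of Cdkn1a was the poorest in CpG, with an observed over expected ratio of 0.0892, against 0.786 at its second listed start, while the median was 0.759 over the 12 promoters of these genes and 0.567 over all promoters. Over all genes, those with an optimal peak within 1 kb of the start had a median of 0.824, and those without one 0.527.

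The apoptosis genes had no strong peak of their own. Bax encodes a Bcl-2 family protein that permeabilises the mitochondrial outer membrane. Its window held 3 optimal peaks, all of them downstream of the gene and nearest to the start of Ftl1, the ferritin light chain. The strongest, chr7:45457284-45457643, lay 2422 bp downstream of the start of Ftl1, 480 bp past its end, with a signal of 19.4 in replicate 1 and 20.1 in replicate 2, and 32.4 in the optimal list. The next, of signal 30.4, lay 102 bp before the Ftl1 start. The weakest, of signal 27.6, lay over Gys1, which encodes the muscle glycogen synthase. At Bax itself the best summit within 1 kb ranked 50102 in replicate 1 and 10003 in replicate 2.

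Bbc3 encodes PUMA, which frees Bax-type proteins from their inhibitors. It had no optimal peak within 20 kb, and the nearest lay 46482 bp away with a signal of 53.4, closest to the start of Sae1, a subunit of the SUMO-activating enzyme. Among the 20000 strongest peaks its window held 1 in replicate 1 and 3 in replicate 2, the best at rank 16947 and 8607. Trp53inp1 encodes a stress protein that works with p53 and in autophagy. It had the most distant optimal peak of the 10 genes, 141041 bp from the gene and of signal 17.8. Replicate 1 had 5 peaks in its window among the 20000 strongest, the best at rank 8575 and 466 bp inside the start. Replicate 2 had none, and its best peak there ranked 25294, so the replicates differ at Trp53inp1.

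The sestrins Sesn1 and Sesn2 restrain the growth kinase complex mTORC1 under stress. Sesn1 had 1 optimal peak, chr10:41809372-41809731, 1022 bp upstream of its outer start and 316 bp inside the start of Cep57l1, a gene for a centrosomal protein on the opposite strand. The signal was 12.6 in replicate 1 and 11.9 in replicate 2, and 28.0 in the optimal list, at rank 6398, 7809 and 4504. Sesn2 had no optimal peak within 20 kb. The nearest, 23019 bp away and of signal 44.6, lay 1795 bp downstream of the start of Atpif1, an inhibitor of the mitochondrial ATP synthase. In the relaxed lists the best peak of the Sesn2 window ranked 3307 in replicate 1, at 5167 bp before the start. In replicate 2 the best ranked 8799, at 14228 bp before the start. A peak near the start of Sesn2 ranked 6695 in replicate 1, at 157 bp before it, and 11572 in replicate 2, at 634 bp inside it.

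**Figure D4:**
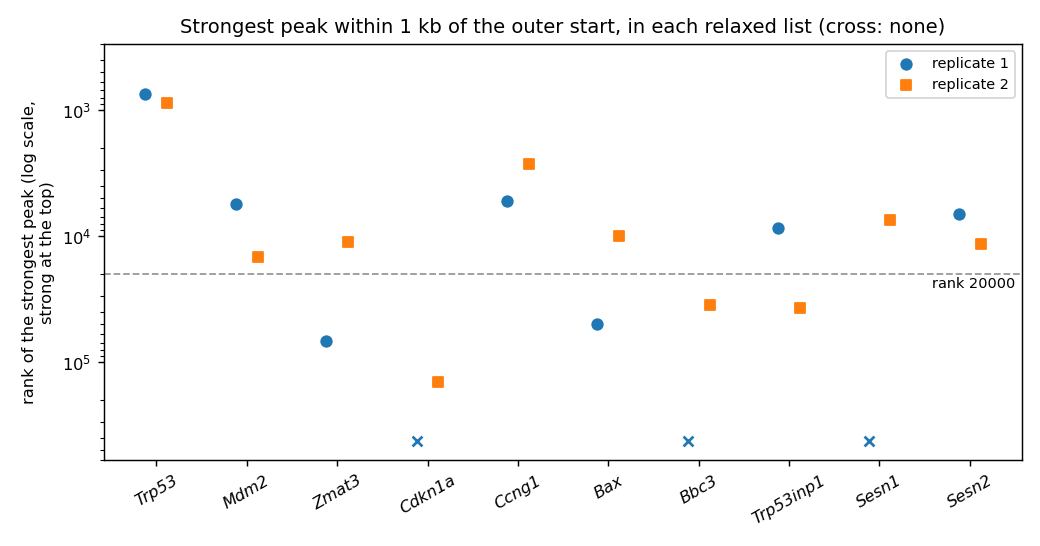
Rank of the strongest peak within 1 kb of the outer start of each gene in the relaxed list of replicate 1 (circles) and replicate 2 (squares), on a log scale with strong peaks at the top. A cross marks a gene with no peak there, as for Cdkn1a, Bbc3 and Sesn1 in replicate 1. Trp53 is high in both replicates (746 and 875), and the dashed line is rank 20000.

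The peaks of the group fell into a strong and a weak range. In the optimal list 88.2% of peaks had the same width of 360 bp. The 4 strongest peaks of the p53 genes, at Zmat3, Wrap53, Nudcd2 and Trp53, were narrower, with widths from 97 to 288 bp, and all had a signal of at least 102. The 10 others had the common width and signals from 19.9 to 33.3, at rank 3497 to 6746. No peak of the group lay between these ranges. Over the whole list the 947 narrower peaks had a median signal of 134 and the 7308 of the common width one of 27.4. The 27 wider peaks had the highest median, 295, so a high signal went with a departure from the common width in either direction. A signal of 100 or more, a line drawn after the values were seen, was reached in the windows of 3 genes, Trp53, Zmat3 and Ccng1, against 7.55% of all genes.

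Of the 14 optimal peaks, 13 were also among the 20000 strongest of both replicates, the exception being the one at Efnb3. The ratio of the signal in replicate 1 to that in replicate 2 ran from 0.332 at Efnb3 to 1.98 in the first intron of Trp53. Those scales come from separate lists, so the ranks above are the better guide. Among all peaks of the windows in the 20000 strongest, 19 of 38 in replicate 1 overlapped one of replicate 2, against 40.5% of all 20000. In the other direction it was 17 of 44 (38.6%), against 40.7%. Among the 5000 strongest of each replicate, 9 of 11 peaks of the windows overlapped one of the 20000 strongest of the other, in either direction, against 84.0% of all such peaks of replicate 1 and 80.7% of replicate 2. The edges of the limits passed close to peaks of the genes. In the pooled list a Trp53inp1 peak ranked 19379 and a Sesn2 peak 20693, in replicate 1 a Cdkn1a peak 19113 and a Sesn2 peak 21674, and in replicate 2 an Mdm2 peak 19622 and a Ccng1 peak 20520. The farthest optimal peak inside the windows lay 18533 bp from Trp53, and the nearest outside lay 23019 bp from Sesn2. Just beyond the limit of 1 kb from the outer start lay the Sesn1 peak, at 1022 bp, and the strongest peak in the Trp53 window, at 1054 bp. With a limit of 2.5 kb Sesn1 joined Trp53 and Ccng1 in the optimal list, giving 3 genes against 16.2% of all.

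**Figure D5:**
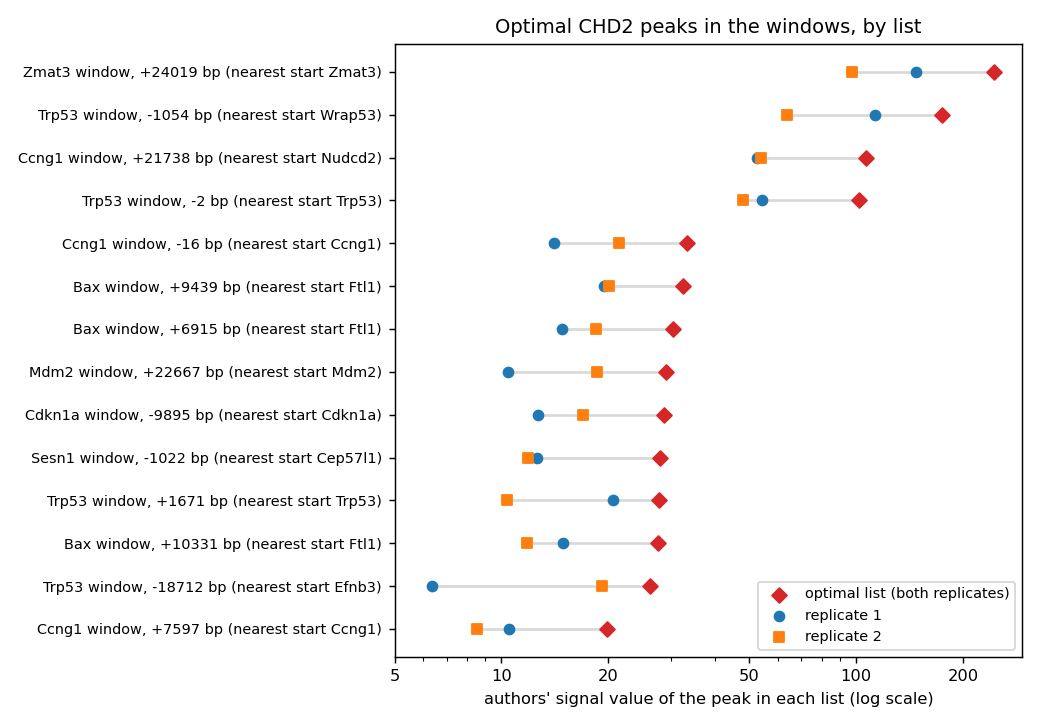
Signal of the 14 optimal peaks of the p53 genes in the optimal list (diamonds), replicate 1 (circles) and replicate 2 (squares), on a log scale, ordered by the optimal signal and named by window, distance from the outer start and nearest start. The 4 strongest peaks, 102 to 245 in the optimal list, stand apart from the other 10, which lie between 19.9 and 33.3.

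Other genes of the pathway were counted in the same window. An optimal peak was found for 10 of 20 regulators of p53, 7 of 14 other arrest and DNA repair targets, 6 of 16 other apoptosis targets, 8 of 15 other metabolic and signalling targets and 7 of 13 paralogs of the 10 genes. Together this was 37 of 77 different genes (48.1%), set beside the 36.7% of all genes given above. Mdm4, listed as both a regulator and a paralog, was counted once in this total. The strongest peak of Wrap53, of signal 174, was one already counted in the Trp53 window. Among regulators the strongest peaks were those at Wrap53, at Ppm1d (72.3), a phosphatase that ends the damage response, and at Chek2 (71.3), a checkpoint kinase. This Ppm1d peak was nearest to the start of Bcas3, but Ppm1d also had an optimal summit within 1 kb of its own start. The Chek2 peak lay 130 bp inside its own start. The kinases Atr and Chek1 had no optimal peak.

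Among repair targets Xpc, which finds bulky DNA lesions, had a peak of signal 289 that exceeded that of Zmat3. It ranked 91 in replicate 1 and 116 in replicate 2 and lay 152 bp before the start of Xpc and 5 bp inside that of Lsm3. Ercc5, a repair nuclease, had 109 and Polh, a bypass polymerase, 49.1, while Btg2 and Ddb2 had none. The Polh peak lay 41746 bp from the start of Polh and was nearest to that of Gtpbp2. In the apoptosis list Ei24 had 129, Aen 40.7 and Shisa5 34.2, while Apaf1 and Bid had none. Each of these peaks was nearest to the start of a neighbour, namely Stt3a, Isg20 and Trex1 in that order. The Aen peak ranked 34408 in replicate 1 and 1657 in replicate 2. In the metabolic and signalling list Ddit4, an mTORC1 inhibitor, had 107 at 12901 bp from its start. Ddit4 also had a weaker optimal summit within 1 kb of its start. Fdxr had 63.6 and Rap2b 55.8, while Cd82 and Ephx1 had none.

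Among the paralogs Ccng2, the paralog of Ccng1, had a peak of signal 54.0 at 168 bp before its start, and Bak1, the paralog of Bax, one of 47.6 at 44 bp inside its start. Mdm4, the paralog of Mdm2, had one of 39.9 at 3592 bp before its start, which ranked 25161 in replicate 1 and 1318 in replicate 2. Bok and Cdkn1c had none. The Ccng2 peak had a signal of 37.2 in replicate 1 and 18.6 in replicate 2, at rank 1211 and 3405. Set against the Ccng1 start-site peak given above, it was the higher in replicate 1 and the lower in replicate 2.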

How the data were processed

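CHD2 ChIP-seq of ES-E14 cells was analysed from peak lists alone. The optimal and conservative lists on mm10 came, per the descriptions deposited with them, from a procedure that scores how well ranks recur between replicates (IDR), the relaxed lists were its inputs, and a separate list was made on mm9. The signal per peak, the −log10 q-value and the score are deposited by the authors with no stated normalization. Signal ordered the peaks. The −log10 q-value broke ties in signal and gave an alternative order, and the score was not used. The peak caller and aligner were not stated, and the control was not analysed here, so that how it was weighed can shift every signal. Read depth is unknown.

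Genes were RefSeq protein-coding genes of GRCm38.p6. The start is the outer 5′ end, with strand from the RefSeq promoter table or GENCODE M1, for 21458 of 21887 genes. An overlap was 1 bp or more. Sequence was read from RefSeq promoters (8 of the 10 genes matched) or, on mm9, from the mm9 genome, with no change of build. 8 motifs were searched on both strands with exact letters: the p53 half-site, the NF-Y box CCAAT, the Sp box GGGCGG, the E-box CACGTG, the AP-1 site TGACTCA, the NRF1 half-site CATGCGC, the core TCGCGA, and TCTCGCG, which was added after the data were seen. Matches of different motifs may overlap.

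The 10 genes and all lists were chosen with earlier results of these data known. Named besides the 10 genes were, per list, up to 3 members of highest signal, as many as 2 lacking a peak, the neighbours of optimal peaks, and 5 genes with a peak most like that of Zmat3 by Euclidean distance of log2 signals. Scripts used Python 3.11.15, pandas 2.3.3, numpy 2.4.6 and pysam 0.24.0, and the counting was tested on simulated data. No test was run, since 1 group of 2 replicates has no contrast.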

Additional observations from a re-analysis of the deposited data

How the results depend on the processing

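The count of 7 genes with an optimal peak in the window changed by over 1.5 times under 2 alternatives: 4 with the 4141 strongest optimal peaks (Trp53, Zmat3, Ccng1 and Bax) and 3 with the gene body alone. The count of 2 genes with a peak at the start was 5 in the pooled list limited to 20000 peaks. Leaving out 1 replicate gave 5 to 7 with 20000 peaks of the other, and 3 to 4 with as many peaks as the optimal list holds. The share of all genes with a peak in the window, 36.7% in the optimal list, was 57.1% in the pooled list, 19.4% with the gene body alone and 61.9% with 100 kb on each side. Leaving out 1 replicate gave 56.0% to 57.3% with 20000 peaks, and 37.8% to 38.2% with as many as the optimal list holds. The cause was not tested, except that the longer lists and wider windows hold more peaks by construction. On mm9, 5 of the 10 genes had a peak in the window, against 26.3% of genes. Ordered by −log10 q, the 4 strongest peaks tied at rank 1. The missing depth limits every rank below the strongest peaks. No paired analysis was possible because there is 1 group and no test.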
